A study of Mus musculus with 4 samples.

Results

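The 46 genes described here encode proteins that duplicate DNA during S phase, supply its building blocks, package the copied strands or repair them. They were chosen by name, and all 46 were found once by symbol among the 54532 genes of the deposited table. The RNA came from bone marrow-derived macrophages (BMDM), cells that marrow progenitors of C57BL/6 mice aged 6 to 8 weeks became over 6 days in L929-conditioned medium. Donor mice had floxed Fbxw7 on its own (Fbxw7 f/f) or together with LysM-cre. LysM-cre is a Cre recombinase placed in the lysozyme gene Lyz2 and active in cells of the myeloid lineage. Libraries titled WT are read here as the first genotype and those titled KO as the second, though the genotype tags disagree, as described below. Fbxw7 encodes the substrate receptor of a ubiquitin ligase that marks proteins, cyclin E among them, for degradation. Cells were untreated (the libraries labelled WT and KO) or received lipopolysaccharide (LPS), a bacterial membrane component sensed by TLR4, for 3 h (labelled WT_LPS3 and KO_LPS3). No dose of LPS was named in the labels. Each of the 4 groups held 1 library, of 17610372 to 23835940 counts, so every difference between 2 libraries is without a replicate check.

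Replication begins when the origin recognition complex, CDC6 and CDT1 load the MCM helicase onto DNA. CDC45, the GINS complex and MCM10 then activate the helicase, and primase, polymerases and the sliding clamp PCNA copy the strands. Most of these genes are known targets of E2F transcription factors and are transcribed as cells approach S phase. Macrophages grown with macrophage colony-stimulating factor divide in culture, and LPS is known to slow their division.

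The labels were checked on the targeted gene, the genotype tags and lysozyme genes. Fbxw7 stood at 17.9 CPM in the library labelled WT and 17.2 CPM in the one labelled KO, and at 9.90 and 11.7 CPM in WT_LPS3 and KO_LPS3. CPM are read counts scaled to a common library size by TMM, which sets the bulk of genes equal between libraries. Fbxw7 was therefore not lower in either KO library, and whether the deleted part lies within the counted exons is not stated in the labels. The genotype tags name the floxed genotype without Cre for both untreated libraries and LysM-cre for both LPS libraries, in disagreement with the titles. If the tags hold, genotype and LPS cannot be told apart, and no KO effect can be estimated. Lyz2 stood at 15253, 8711, 9917 and 18238 CPM in WT, KO, WT_LPS3 and KO_LPS3, and Lyz1 at 2.86, 32.9, 33.1 and 2.63 CPM in that order. Both lysozyme genes thus set WT beside KO_LPS3 and KO beside WT_LPS3, across the titles. Titles were used as given. The exchanged pairing, in which WT_LPS3 is set against KO and KO_LPS3 against WT, was run for the LPS comparisons only. It is given beside their counts for the 46 genes, the role groups and the pathway lists. Other ratios of single genes are those of the titled pairing. Neither pairing divides the libraries as the genotype tags do.

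In the libraries labelled WT, most replication and repair genes were lower after LPS, and in those labelled KO most were near their untreated level. A gene was called higher or lower when its log2 ratio, taken from normalized counts with a prior count of 2, was at least 1 in size (2-fold) and the exact 95% binomial interval of the ratio excluded no change. Printed fold values carry no prior count, so a gene at 2-fold can miss the call. The interval covers counting error only. Of 46 genes, 28 were lower and 1, Pcna, was higher in WT_LPS3 than in WT, against 15.0% lower and 15.4% higher among the 12326 genes measured at a mean of at least 1 CPM. Their median log2 ratio was -1.20, against -0.01 over all genes tested. In KO_LPS3 against KO, 3 of the 46 were lower and 2 higher, against 17.8% lower and 14.6% higher among all genes tested, and their median log2 ratio was 0.00 against -0.07. In bulk RNA, fewer cells in S phase and less of each transcript per cell cannot be told apart.

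**Figure D1:**
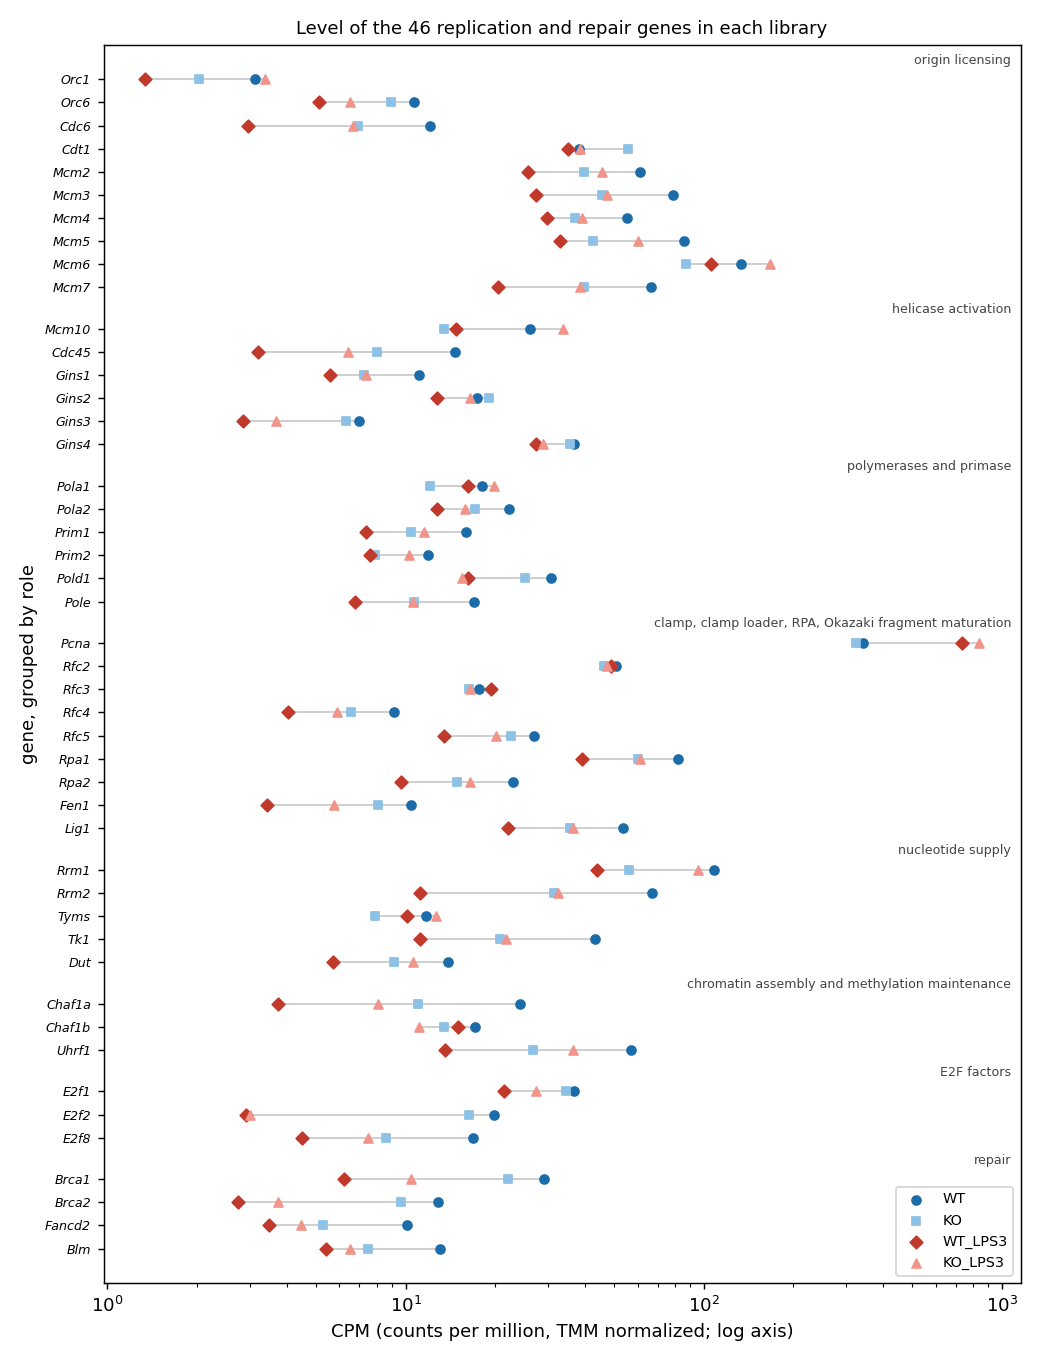
Level of each of the 46 genes in the 4 libraries, in CPM on a log axis, grouped by role. The grey line joins the lowest and highest library of a gene; WT (dark blue) lies highest for 37 genes, WT_LPS3 (dark red) lies lowest for 37, and Pcna stands far above the other genes.

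The size of that contrast depended on which untreated library was used. With the untreated libraries exchanged, 9 of the 46 genes were lower and 1 higher in WT_LPS3 than in KO (all genes tested: 14.9% and 13.6%), and the median log2 ratio was -0.63. In KO_LPS3 against WT, 8 were lower and 1 higher (15.7% and 14.1% of all genes tested), with a median of -0.54. Pcna was the gene called higher in all 4 pairings of an LPS with an untreated library. The 2 untreated libraries themselves differed by a median of -0.59 on the log2 scale over these genes, and the 2 LPS libraries by 0.61 in the opposite direction.

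Summed over the 45 genes other than Pcna, the level was 1527 CPM in WT, 1029 in KO, 741 in WT_LPS3 and 1134 in KO_LPS3. WT was the highest library and WT_LPS3 the lowest, with KO and KO_LPS3 between them. Pcna alone supplied so much RNA that the sum over all 46 genes ran 1869, 1352, 1477 and 1971 CPM in that order and placed KO_LPS3 first. On the authors' FPKM scale, which divides by transcript length and so allows genes to be compared, Pcna led in every library, at 139.6, 129.7, 308 and 358 FPKM. Mcm6 and Gins4 followed it in every library, at 18.0 to 36.8 FPKM, and Orc1 or Brca2 was the lowest, at 0.201 to 0.881 FPKM. The median of the 46 was 5.65, 4.24, 3.00 and 4.36 FPKM in the same order of libraries, while that of all genes tested lay between 4.84 and 5.02.

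The promoters of some members carry the E2F consensus, shown here for genes whose RNA moved in different ways. RefSeq promoter windows of GRCm38.p6, from 250 bases before to 50 after an annotated start, were matched by symbol for 38 of the 46 genes and gave 44 windows. The E2F search used the letters TTTCCCGC, TTTCGCGC, TTTGCCGC and TTTGGCGC on both strands. Of the 44 windows, 15 (34.1%) held a match, against 2.26% of 32851 windows of the same length over all genes. Mcm5, called lower in WT_LPS3 than in WT, is shown with Mcm6, which holds 3 matches upstream of its start and was highest in KO_LPS3. Pcna and Mcm10, the genes called higher after LPS in the libraries labelled KO, hold none of these letters in their windows, and that of Mcm10 is shown. The 250 bases before each start are printed 5′ to 3′ on the strand of the gene, with E2F matches in capitals. They lie at chr8:75109259-75109508 (plus strand) for Mcm5, chr1:128359706-128359955 (minus strand) for Mcm6 and chr2:5012792-5013041 (minus strand) for Mcm10.
Mcm5: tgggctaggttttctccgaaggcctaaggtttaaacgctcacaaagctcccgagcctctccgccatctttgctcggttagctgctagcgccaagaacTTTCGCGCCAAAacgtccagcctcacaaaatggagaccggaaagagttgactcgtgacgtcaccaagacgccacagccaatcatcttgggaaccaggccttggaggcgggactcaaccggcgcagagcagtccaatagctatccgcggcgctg
Mcm6: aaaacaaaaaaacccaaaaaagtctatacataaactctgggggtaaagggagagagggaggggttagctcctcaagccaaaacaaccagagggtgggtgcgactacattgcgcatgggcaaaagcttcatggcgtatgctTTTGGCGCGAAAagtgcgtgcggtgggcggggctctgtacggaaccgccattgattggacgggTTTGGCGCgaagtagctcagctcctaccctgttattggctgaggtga
Mcm10: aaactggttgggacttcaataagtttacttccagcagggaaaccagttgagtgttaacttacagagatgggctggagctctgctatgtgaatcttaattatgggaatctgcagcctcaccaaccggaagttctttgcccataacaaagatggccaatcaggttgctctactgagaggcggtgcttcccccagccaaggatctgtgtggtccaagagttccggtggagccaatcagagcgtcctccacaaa

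In Mcm5 the 2 matches overlap, and they lie 153 to 142 bases before the start. In Mcm6, 2 overlapping matches lie 110 to 99 bases before the start and the third 47 to 40 bases before it. Of the 15 genes with a match, 10 were called lower in WT_LPS3 than in WT, at a median log2 ratio of -1.29. Of the 23 matched genes without one, 16 were called lower, at a median of -1.24, close to that of the genes with one. The split was wider with shorter E2F letters, which lack the first base of each. Of the 26 genes holding these, 20 were called lower, with a median of -1.29. Among the 12 genes without them, 6 were called lower, with a median of -1.03. The CCAAT letters, searched on both strands on their own and not checked for bases shared with E2F matches, were in 27 of the 44 windows (61.4%) and in 37.4% of all windows. The cell-cycle homology region of mitotic genes, searched as TTTGAA on both strands, was in 6 windows (13.6%), against 17.9% of all windows and 12 of 17 mitosis genes with a window. Of the genes with the CCAAT letters, 19 of 24 were called lower in WT_LPS3 than in WT, and 7 of 14 without them. Their median log2 ratios were -1.25 and -1.08. For the cell-cycle homology region the counts were 6 of 6 with it and 20 of 32 without, with medians of -1.73 and -1.17. Whether genes with and without a match differ was not tested for any of these letters. A match is a run of letters in the reference sequence, and binding was not measured.

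Origin licensing genes were mostly lower in WT_LPS3 and showed no called change in KO_LPS3. Of 10 genes, 7 were lower in WT_LPS3 than in WT and none was called in KO_LPS3 against KO, with median log2 ratios of -1.20 and 0.06. In the exchanged pairing 1 of 10, Cdc6, was lower in WT_LPS3 than in KO and 0 in KO_LPS3 than in WT, with medians of -0.64 and -0.51. Mcm5, a subunit of the MCM helicase, stood at 86.1 CPM in WT, 42.4 in KO, 33.0 in WT_LPS3 and 60.3 in KO_LPS3. The order was WT, KO_LPS3, KO, WT_LPS3, so that KO_LPS3 lay between the 2 untreated libraries and WT_LPS3 below both. It was 2.61-fold lower (95% interval 2.37 to 2.87) in WT_LPS3 than in WT, and in KO_LPS3 it was 1.42 times its level in KO (1.30 to 1.55). With untreated libraries exchanged, it was 1.28-fold and 1.43-fold lower, not called in either. Cdc6, which loads the helicase together with CDT1, stood at 12.1, 6.91, 2.97 and 6.67 CPM in WT, KO, WT_LPS3 and KO_LPS3. It was 4.06-fold lower (3.00 to 5.60) after LPS in WT and indistinguishable in KO, at a ratio of 0.966 (0.756 to 1.23).

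The helicase subunits did not all follow that pattern. Mcm2, Mcm3, Mcm5 and Mcm7 were called lower in WT_LPS3, by 2.36 to 3.26-fold, and Mcm4 was 1.84-fold lower (1.66 to 2.05), short of the threshold. Mcm7 shares 321 exonic bases with Ap4m1 and 64 with Cops6, both on the other strand, so its counts are uncertain. Mcm6 stood at 133, 87.1, 106 and 167 CPM in WT, KO, WT_LPS3 and KO_LPS3, so that KO_LPS3 and not WT was its highest library. Its level in KO_LPS3 was 1.92 times that in KO (1.82 to 2.03), while WT_LPS3 was 1.25-fold below WT (1.18 to 1.33). Since the 6 subunits form 1 ring, the other 5 give the comparison: Mcm2, Mcm3, Mcm4 and Mcm7 had KO_LPS3 to KO ratios of 0.968 to 1.15, and Mcm5 1.42.

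Orc1, the largest subunit of the origin recognition complex, was scarce at 3.13, 2.02, 1.34 and 3.37 CPM, from 69, 56, 23 and 55 counts. Its ratio was 0.428 (0.255 to 0.695) in WT_LPS3 against WT and 1.66 (1.12 to 2.46) in KO_LPS3 against KO. Orc6, another subunit, was 2.10-fold lower (1.64 to 2.71) in WT_LPS3 and 1.38-fold lower (1.09 to 1.75) in KO_LPS3. It shares 171 exonic bases with Vps35 on the other strand, a gene of 3547 to 5244 counts, so its counts are uncertain. Cdt1, the other helicase loader, departed from the rest at 38.1, 55.5, 35.1 and 38.4 CPM. KO was its highest library, at 1.46 times WT (1.34 to 1.59), and no ratio of Cdt1 reached 2-fold.

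Among the 6 helicase activation genes, Mcm10 moved in opposite directions under the 2 titles. Mcm10 (ENSMUSG00000026669, chr2:4989714-5012791 of mm10, minus strand), a helicase cofactor at the start of synthesis, stood at 26.2 CPM in WT, 13.4 in KO, 14.8 in WT_LPS3 and 33.6 in KO_LPS3. It was 2.51 times as high in KO_LPS3 as in KO (2.20 to 2.87) and 1.76-fold lower in WT_LPS3 than in WT (1.52 to 2.05). With the untreated libraries exchanged, its log2 ratios were 0.15 for WT_LPS3 and 0.36 for KO_LPS3, neither of them called. Cdc45, which binds the helicase as it is activated, stood at 14.6, 8.03, 3.20 and 6.42 CPM in WT, KO, WT_LPS3 and KO_LPS3. It was 4.55-fold lower (3.41 to 6.17) in WT_LPS3 and 1.25-fold lower in KO_LPS3, where the interval of 0.986 to 1.59 included no change. Under the exchanged pairing, Cdc45 was called lower in both LPS libraries, by 2.51-fold and 2.27-fold. Of the group, Gins3 was called in WT_LPS3 too. Cdc45 shares 209 exonic bases with Ufd1 on the other strand, a gene of 596 to 964 counts, so its counts are uncertain.

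The 4 GINS subunits, which form 1 complex, differed among themselves. Gins3 was called lower in WT_LPS3, by 2.45-fold (1.76 to 3.45), and Gins1 was 1.99-fold lower (1.56 to 2.54), just below the threshold. Gins2 and Gins4 were 1.37-fold and 1.34-fold lower in that comparison. Gins4 stood at 36.7, 35.5, 27.4 and 28.9 CPM, so both untreated libraries exceeded both LPS libraries by similar amounts. Gins2 shares 2758 exonic bases with Gse1 on the other strand, so its counts are uncertain.

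Of the polymerase and primase genes, 2 of 6 were called lower in WT_LPS3 and none in KO_LPS3. Pole, the catalytic subunit of the leading-strand polymerase, stood at 16.9, 10.7, 6.75 and 10.6 CPM in WT, KO, WT_LPS3 and KO_LPS3. It was 2.50-fold lower (2.02 to 3.10) after LPS in WT, and its ratio of 0.991 (0.817 to 1.20) in KO included no change. Prim1, the catalytic primase subunit, followed the same order of libraries as Mcm5, at 15.9, 10.4, 7.34 and 11.5 CPM, and was 2.16-fold lower (1.76 to 2.67) in WT_LPS3. Pold1, the catalytic subunit of the lagging-strand polymerase, stood at 30.7, 25.2, 16.2 and 15.4 CPM and was lower after LPS by similar factors in both titles, 1.90-fold (1.65 to 2.19) and 1.64-fold (1.42 to 1.91). Pola1, the catalytic subunit of the polymerase that works with primase, stood at 18.1, 12.1, 16.2 and 19.8 CPM, and KO rather than WT_LPS3 was its lowest library. Pola2 and Prim2, the partner subunits, were 1.75-fold and 1.57-fold lower in WT_LPS3. After exchanging the untreated libraries, 0 of the 6 were called, with medians of -0.47 and -0.48.

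**Figure D2:**
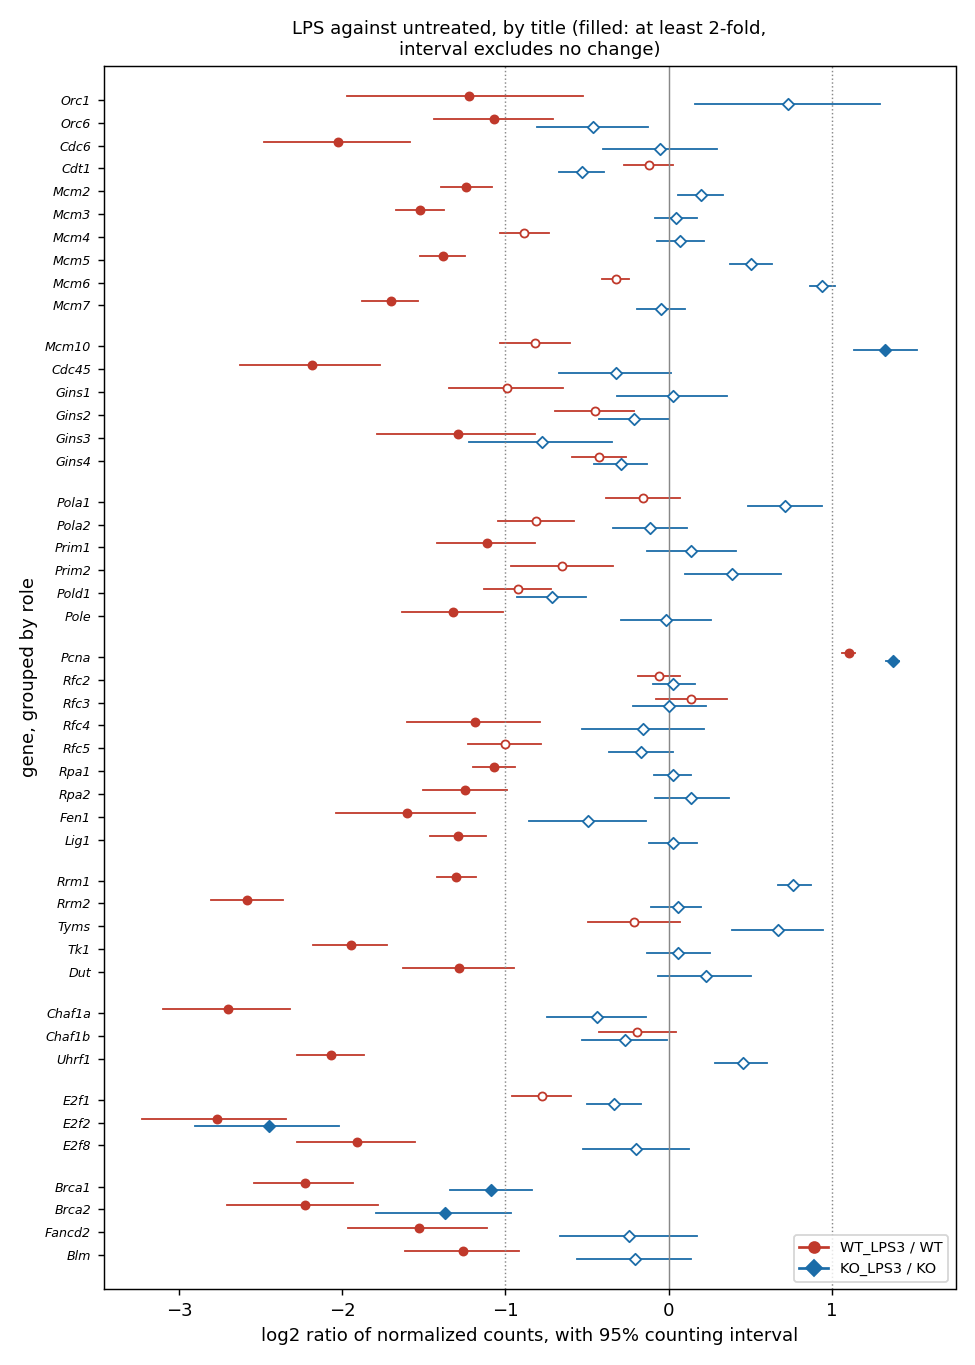
Log2 ratio of normalized counts, LPS over untreated, for each gene in the libraries labelled WT (circles) and KO (diamonds), with 95% counting intervals; filled symbols are called and dotted lines mark 2-fold. Most circles lie left of the diamond of the same gene, while Pcna lies right of 1 and E2f2 left of -2 in both.

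Pcna was the member with the highest level and the one that was called higher after LPS under both titles. The gene (ENSMUSG00000027342, chr2:132249162-132253314 of mm10, minus strand) encodes the ring that holds polymerases on DNA and recruits repair factors. Its level was 342 CPM in WT, 323 in KO, 736 in WT_LPS3 and 837 in KO_LPS3, so both LPS libraries exceeded both untreated ones. The ratio was 2.15 (2.09 to 2.21) in WT and 2.59 (2.52 to 2.66) in KO. In the additive model, which fits 1 LPS effect and 1 title effect to the 4 libraries, Pcna rose by 1.28 ± 0.28 (standard error) on the log2 scale (edgeR quasi-likelihood test, adjusted p = 0.0456). Scaled to library totals without TMM, its log2 effect was 0.70 with an adjusted p of 0.133, and no member was called higher. The processed pseudogene Pcna-ps2 held 45, 47, 84 and 95 counts, so reads shared with it are few beside those of Pcna.

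The genes among the 46 that encode subunits of the clamp loader, which opens that ring, showed no common direction. Rfc2, a clamp loader subunit, stood at 50.7, 46.2, 48.7 and 47.2 CPM, and the intervals of both LPS ratios included no change. Rfc3 stood at 17.6, 16.3, 19.4 and 16.4 CPM and likewise showed no LPS difference beyond counting error. Rfc4 was called lower in WT_LPS3, by 2.28-fold (1.73 to 3.04), and Rfc5, at 2.00-fold lower (1.72 to 2.34), missed the call once the prior count was added. Rfc2 shares 952 exonic bases with Lat2, Rfc4 194 with Eif4a2 and Rfc5 499 with Wsb2, all on the other strand. The counts of these clamp loader genes are therefore uncertain.

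Genes for single-strand binding and Okazaki fragment maturation were called lower in WT_LPS3 and not in KO_LPS3. Rpa1 and Rpa2, subunits of the protein that coats single-stranded DNA, were 2.10-fold (1.92 to 2.30) and 2.37-fold (1.98 to 2.84) lower in WT_LPS3. Lig1, the ligase that joins Okazaki fragments, stood at 53.8, 35.6, 22.0 and 36.3 CPM in WT, KO, WT_LPS3 and KO_LPS3, and was 2.44-fold lower (2.17 to 2.75). Rpa1, Rpa2 and Lig1 had ratios of 1.02 to 1.10 in KO_LPS3 against KO, with intervals that included no change. Fen1, the flap nuclease, was 3.04-fold lower (2.27 to 4.11) in WT_LPS3 and 1.41-fold lower (1.10 to 1.81) in KO_LPS3. In the exchanged pairing Fen1 was called lower in WT_LPS3 (2.36-fold), while Rpa1, Rpa2 and Lig1 were called in neither library, Lig1 at 1.62-fold and 1.48-fold lower. Fen1 shares 1909 exonic bases with an antisense gene that held 0 to 3 counts. It also shares 130 with Tmem258 on the other strand, a gene of 707 to 1254 counts, so its counts are uncertain.

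Of the nucleotide supply genes, 4 of 5 were called lower in WT_LPS3 and none in KO_LPS3. With untreated libraries exchanged, 1 of 5, Rrm2, was called lower in each LPS library, with group medians of -0.67 and -0.38. Rrm2 (ENSMUSG00000020649, chr12:24708241-24714146 of mm10, plus strand), the S-phase subunit of ribonucleotide reductase, stood at 67.3 CPM in WT, 31.4 in KO, 11.2 in WT_LPS3 and 32.5 in KO_LPS3. WT and WT_LPS3 were the extremes, and KO and KO_LPS3 lay together between them. Rrm2 was 5.99-fold lower (5.15 to 6.99) in WT_LPS3 than in WT, and its ratio in KO was 1.04 (0.928 to 1.15). The log2 LPS ratio in KO exceeded that in WT by 2.62 (95% counting interval 2.36 to 2.89), the highest value among the 46 genes.

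Rrm1, the other reductase subunit, stood at 108, 56.2, 44.0 and 95.8 CPM in WT, KO, WT_LPS3 and KO_LPS3. It was 2.46-fold lower (2.27 to 2.68) after LPS in WT and 1.70 times as high (1.59 to 1.83) after LPS in KO. Under the exchanged pairing, Rrm1 was 1.28-fold and 1.13-fold lower. Tk1, the thymidine kinase of dividing cells, stood at 43.1, 20.8, 11.2 and 21.7 CPM in the same order and was 3.86-fold lower (3.30 to 4.53) in WT_LPS3, or 1.86-fold against KO. Dut, which hydrolyses dUTP, was 2.43-fold lower (1.93 to 3.09) there. Tyms, which makes thymidylate, was the exception of the group at 11.7, 7.92, 10.1 and 12.6 CPM, with no ratio at 2-fold and KO as its lowest library.

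Of the 3 chromatin genes, Chaf1a and Uhrf1 were called lower in WT_LPS3 and Chaf1b was not. Uhrf1, which guides maintenance methylation to copied DNA, stood at 57.0 CPM in WT, 26.7 in KO, 13.6 in WT_LPS3 and 36.5 in KO_LPS3. It was 4.20-fold lower (3.65 to 4.85) after LPS in WT, and in KO_LPS3 it was 1.37 times its level in KO (1.22 to 1.52). Chaf1a, the large subunit of chromatin assembly factor 1, stood at 24.1, 11.0, 3.73 and 8.08 CPM and was 6.47-fold lower (4.99 to 8.53) in WT_LPS3. Chaf1b, the partner subunit of Chaf1a, stood at 17.1, 13.4, 15.0 and 11.1 CPM, and its LPS ratio in WT of 0.876 (0.745 to 1.03) included no change. Chaf1a shares 4648 exonic bases with Ubxn6 on the other strand, a gene of 256 to 470 counts, so its level is uncertain. After exchanging the untreated libraries, Chaf1a was called lower in both LPS libraries (2.94-fold and 2.99-fold) and Uhrf1 in neither (1.97-fold and 1.56-fold).

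Among the E2F factors, E2f2 was lower after LPS under both titles. E2f2 (ENSMUSG00000018983, chr4:136172394-136196057 of mm10, plus strand), an activating E2F, stood at 19.8 CPM in WT, 16.3 in KO, 2.91 in WT_LPS3 and 3.00 in KO_LPS3. Both LPS libraries lay far below both untreated ones, by 6.81-fold (5.07 to 9.31) in WT and 5.45-fold (4.05 to 7.48) in KO. In the additive model E2f2 fell by 2.57 ± 0.33 on the log2 scale (edgeR quasi-likelihood test, adjusted p = 0.0139). E2f1, the best-known activating E2F, stood at 36.7, 34.5, 21.4 and 27.4 CPM and was 1.71-fold (1.51 to 1.94) and 1.26-fold (1.12 to 1.41) lower after LPS in WT and KO. E2f8, an atypical E2F that represses transcription, stood at 16.8, 8.57, 4.48 and 7.46 CPM and was called lower in WT_LPS3, by 3.75-fold (2.93 to 4.86), and not in KO_LPS3. In the exchanged pairing E2f8 was called in KO_LPS3 (2.25-fold, 1.83 to 2.79) and not in WT_LPS3 (1.91-fold), and E2f2 in both.

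The 4 repair genes were all called lower in WT_LPS3, and Brca1 and Brca2 were called lower in KO_LPS3 too. Brca1, which acts in homologous recombination, stood at 29.2 CPM in WT, 22.1 in KO, 6.23 in WT_LPS3 and 10.4 in KO_LPS3. Its LPS libraries lay below its untreated libraries in every pairing, by 4.69-fold (3.82 to 5.81) in WT and 2.12-fold (1.79 to 2.53) in KO. Brca2, which acts with it in homologous recombination, stood at 12.8, 9.65, 2.74 and 3.73 CPM and was 4.69-fold (3.43 to 6.53) and 2.59-fold (1.95 to 3.47) lower in WT and KO. In the additive model their log2 effects were -1.62 ± 0.38 for Brca1 and -1.76 ± 0.40 for Brca2, with adjusted p of 0.0541 and 0.0502 (edgeR quasi-likelihood test), short of the threshold of 0.05. DESeq2 gave 0.00551 and 0.0120, and limma-voom 0.0437 and 0.0413. Fancd2, of the Fanconi pathway of crosslink repair, was 2.88-fold lower (2.16 to 3.90) in WT_LPS3, and Blm, a helicase that resolves recombination intermediates, 2.40-fold lower (1.89 to 3.06). With untreated libraries exchanged, Brca1 and Brca2 were called lower in both LPS libraries, Fancd2 in KO_LPS3 (2.25-fold) and Blm in neither.

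Fitted over all 4 libraries, the LPS effect passed an adjusted p of 0.05 for 2 of the 46 genes, Pcna rising and E2f2 falling, against 9.35% rising and 5.14% falling among 13989 genes tested with edgeR. Its median over the 46 was -0.52 on the log2 scale, with 39 negative and 7 positive values. The additive model has 1 residual degree of freedom, and a gene whose LPS ratio differs between titles is given a wide error there. With DESeq2 and with limma-voom 1 member rose and 3 fell, beside 11.5% and 6.50% of genes with DESeq2 and 10.8% and 6.33% with limma-voom. The KO effect common to both treatments passed the threshold for 0 members and 0% of genes with edgeR, and 0 members had an unadjusted p under 0.05. DESeq2 and limma-voom likewise called 0 members, and the median KO effect of the 46 was 0.01.

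By title, with which the genotype tags disagree, the comparison of KO with WT ran in opposite directions before and after LPS. Untreated, 5 of the 46 genes were lower in KO and 0 higher, against 2.03% lower and 3.16% higher among all genes tested, and the median log2 ratio was -0.59 against 0.03. They were Mcm5, Rrm2, Tk1, Chaf1a and Uhrf1, at 2.03-fold (1.89 to 2.19) to 2.20-fold (1.91 to 2.54) lower. After LPS, 7 genes were higher in KO_LPS3 than in WT_LPS3 and 0 lower, against 3.42% higher and 4.81% lower among all genes tested, with a median of 0.61 against -0.02. These were Orc1, Cdc6, Mcm10, Rrm1, Rrm2, Chaf1a and Uhrf1. Rrm2 had the highest ratio, 2.89 (2.45 to 3.43), followed by Uhrf1 at 2.69 (2.31 to 3.14). Cdc45, at a ratio of 2.01 (1.43 to 2.83), missed the call once the prior count was added.

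In 40 of the 46 genes WT exceeded KO untreated and KO_LPS3 exceeded WT_LPS3, an order found in 31.8% of all genes tested. In 31 of them both intervals excluded no change, as in 14.6% of all genes tested. The 6 others were Cdt1, Gins2, Pold1, Rfc2, Rfc3 and Chaf1b. At a 1.5-fold threshold in place of 2-fold, 24 genes were lower in KO untreated and 23 higher in KO_LPS3. The shares of all genes tested were then 5.98% and 8.26%. Many of the members' ratios thus lie between 1.5 and 2.

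**Figure D3:**
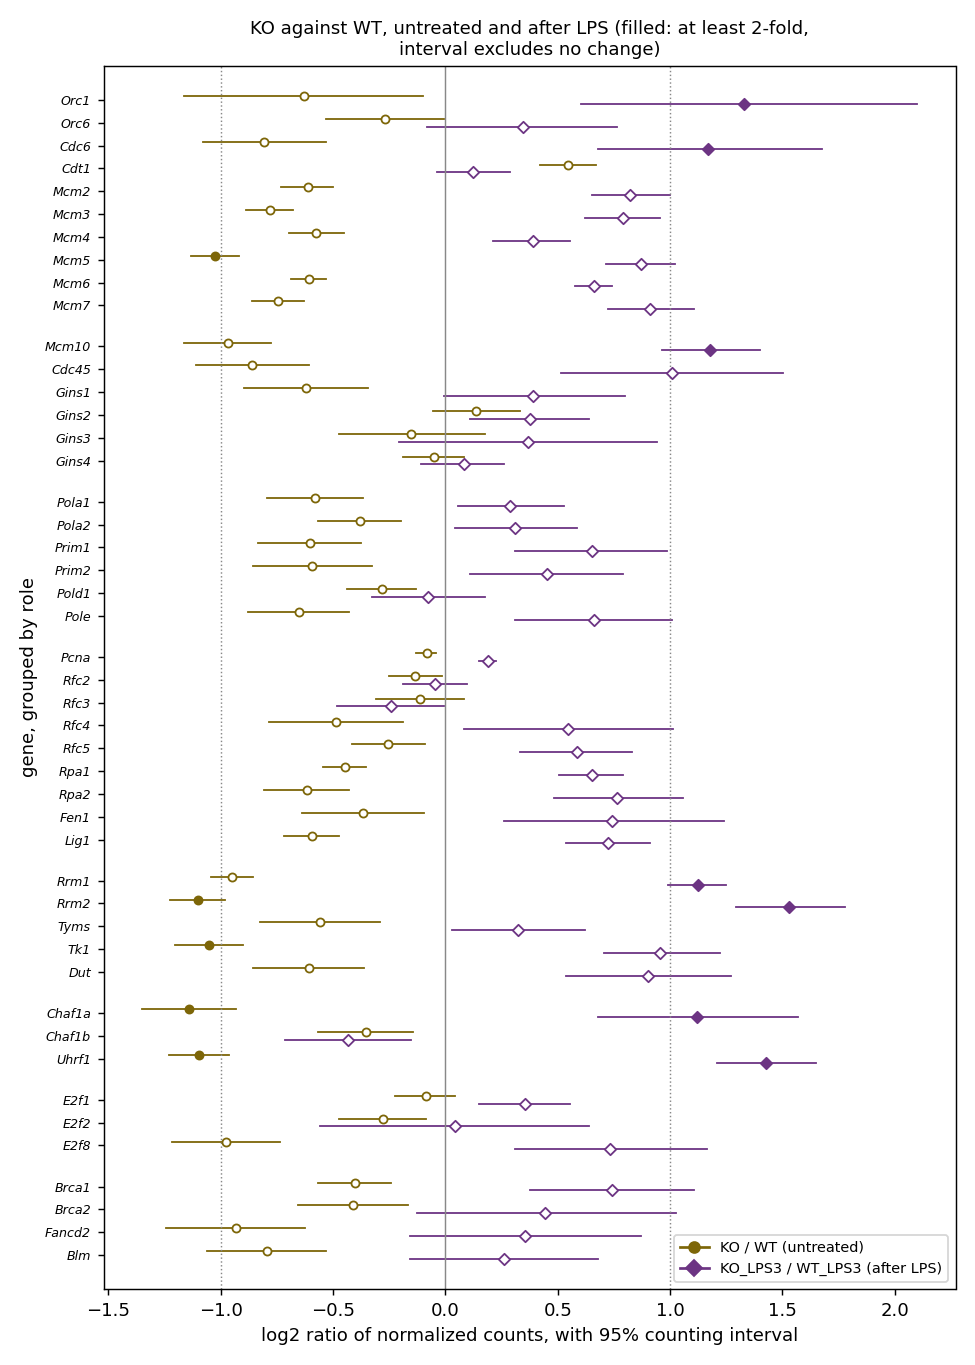
Log2 ratio of normalized counts, KO over WT, for each gene untreated (circles) and after LPS (diamonds), with 95% counting intervals; filled symbols are called. Circles lie left of 0 for 44 genes and diamonds right of 0 for 42, and Cdt1, Gins2, Pold1, Rfc2, Rfc3 and Chaf1b do not cross over in that way.

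The difference of the log2 LPS ratio, KO minus WT, was at least 1 with an interval excluding 0 in 28 of the 46 genes and at most -1 in 0, against 7.75% and 10.3% of all genes tested. The median difference was 1.09 for the 46 and -0.06 for all genes tested. This difference is the same number whether the LPS libraries are set against the untreated libraries of their own title or KO is set against WT within each treatment, so it is not a further line of evidence. After Rrm2 came Uhrf1 at 2.51 (2.26 to 2.77), Chaf1a at 2.23 (1.76 to 2.70), Mcm10 at 2.14 (1.85 to 2.42) and Rrm1 at 2.07 (1.91 to 2.22). At the other end, the intervals of Gins2, Gins3, Gins4, Pold1, Rfc2, Rfc3, Chaf1b and E2f2 included 0. Cdt1 was the 1 gene whose interval lay below 0, at -0.41 (-0.61 to -0.21). No test of this difference is possible with 1 library per group, and it was not computed with the untreated libraries exchanged. In that pairing the median log2 LPS ratios of the 46 genes were -0.63 (WT_LPS3 against KO) and -0.54 (KO_LPS3 against WT).

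**Figure D4:**
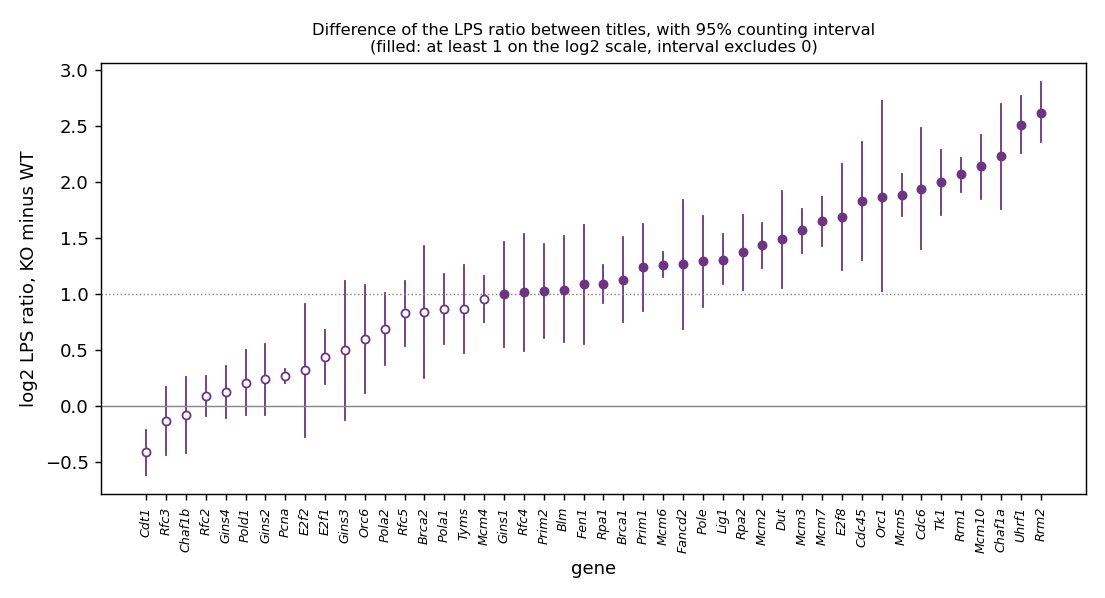
Log2 LPS ratio in the libraries labelled KO minus that in those labelled WT for the 46 genes, in ascending order, with 95% counting intervals; filled symbols are 1 or more with an interval above 0. Cdt1 is lowest at -0.41 and Rrm2 highest at 2.62.

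The order of the 4 libraries was shared by most members. In 19 genes it ran WT, KO, KO_LPS3, WT_LPS3 from high to low, and in 15 it ran WT, KO_LPS3, KO, WT_LPS3. The 2 orders differ only in the middle libraries, which for genes such as Cdc6, Mcm3, Mcm7, Lig1, Rpa1 and Rrm2 did not differ beyond counting error. WT was the highest library in 37 genes and WT_LPS3 the lowest in 37, against 22.6% and 23.6% of all genes tested. Mcm6, Mcm10, Pola1 and Tyms shared the order KO_LPS3, WT, WT_LPS3, KO. Both untreated libraries exceeded both LPS libraries in 21 genes, against 38.1% of all genes tested.

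The authors' deposited table gives adjusted p-values of its own for the 4 comparisons, by a test the labels do not name. At an adjusted p under 0.05, the authors' deposited table called 1 member higher and 22 lower in WT_LPS3 against WT, beside 9.94% and 8.30% of its genes. For KO_LPS3 against KO, the authors' deposited table called Mcm10 and Pcna higher and E2f2 and Brca2 lower, beside 9.05% and 10.2% of its genes. Untreated KO against WT had 0 members called in the authors' deposited table, beside 0.651% of its genes higher and 0.172% lower. After LPS the authors' deposited table called 1 member, Rrm2, higher (adjusted p = 0.0291) and 0 lower, beside 0.634% and 0.961% of its genes.

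Genes of mitosis, listed for comparison, had the same highest and lowest libraries with a wider range. Their summed level over 20 genes was 1049 CPM in WT, 406 in KO, 309 in WT_LPS3 and 686 in KO_LPS3. Of the 20, 19 were lower in WT_LPS3 than in WT (median log2 ratio -2.09) and 3 were higher in KO_LPS3 than in KO (median 0.55). Plk1, a mitotic kinase, stood at 29.7, 10.8, 2.62 and 7.77 CPM in WT, KO, WT_LPS3 and KO_LPS3. Mki67, which encodes the proliferation antigen Ki-67, stood at 189, 61.5, 104 and 192 CPM. KO was lower than WT untreated in 19 of the 20 (median -1.39), and the median difference of the LPS ratio was 2.67, against 1.09 for the 46 replication and repair genes. Under the exchanged pairing, 9 of the 20 were lower in WT_LPS3 and 8 in KO_LPS3, with medians of -0.82 and -0.72. Whether the 2 lists differ was not tested.

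**Figure D5:**
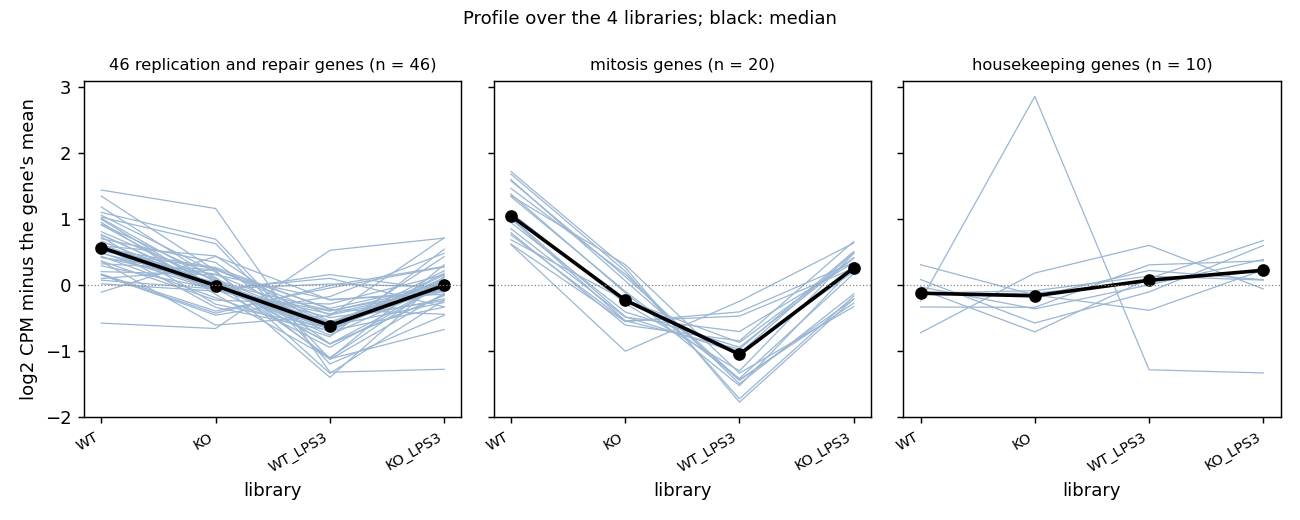
Log2 CPM of each gene minus its mean over the 4 libraries, for the 46 replication and repair genes, 20 mitosis genes and 10 housekeeping genes, with the median in black. The medians of the first 2 panels fall from WT to WT_LPS3 and are higher in KO_LPS3. The housekeeping gene that peaks in KO is Gapdh, at 7.57, 65.3, 3.67 and 3.55 CPM in library order. The cause of these low and uneven Gapdh values was not tested, and no change of its expression is read from them.

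Other genes of the replication pathway were lower in part. Counts for each list are read against 15.0% lower and 15.4% higher of all genes tested in WT_LPS3 and 17.8% and 14.6% in KO_LPS3. Of 32 other replication factors, 11 were lower and 0 higher in WT_LPS3 than in WT (median log2 ratio -0.72), and 6 were lower and 1 higher in KO_LPS3 than in KO (median -0.27). After exchanging the untreated libraries, 8 were lower in WT_LPS3 and 10 in KO_LPS3, and 1 was higher in each. Dna2, a nuclease for long flaps, stood at 14.8, 10.2, 1.22 and 2.39 CPM and was 12.1-fold and 4.27-fold lower after LPS in WT and KO. Clspn, a mediator of the replication checkpoint, stood at 28.8, 14.3, 3.26 and 9.67 CPM and was called lower in WT_LPS3 and not in KO_LPS3. Gmnn, the inhibitor of CDT1, was 5.53-fold and 2.50-fold lower, and Pole2, a polymerase epsilon subunit, 4.62-fold and 2.63-fold. Mcmbp, which binds MCM subunits, was the 1 gene called higher in the titled pairing, at 2.59 times KO in KO_LPS3.

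Nucleotide and chromatin genes outside the 46 moved in both directions. Of 12 other nucleotide supply genes, 2 were higher and 2 lower under each title, near the shares of all genes tested. In the exchanged pairing 2 were higher in each LPS library, 1 lower in WT_LPS3 and 2 in KO_LPS3. Dck, a deoxycytidine kinase of the salvage pathway, stood at 70.3, 61.9, 325 and 377 CPM, and both LPS libraries exceeded both untreated ones. Samhd1, which breaks down deoxynucleotides, stood at 651, 617, 1613 and 2130.3 CPM and was likewise higher in both LPS libraries. Umps, of pyrimidine synthesis, was 2.37-fold and 2.34-fold lower in WT and KO, and Tk2, the mitochondrial thymidine kinase, was called lower in KO_LPS3 by 2.43-fold. Of 9 other chromatin replication genes, 4 were lower and 1 higher in WT_LPS3, and 1 lower and 1 higher in KO_LPS3. With untreated libraries exchanged, 2 were lower and 1 higher in each. Asf1a and Asf1b, histone chaperones of the same family, went apart: Asf1a was 2.74 and 2.48 times as high after LPS in WT and KO, and Asf1b 3.11-fold lower in WT with a ratio of 1.16 in KO. Dnmt1, the maintenance methyltransferase, was 2.98-fold lower in WT_LPS3, and Cdca7 was 5.16-fold and 4.85-fold lower in WT and KO.

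Of 17 further genes of the E2F and RB network, 7 were lower and 3 higher in WT_LPS3, and 3 were lower and 3 higher in KO_LPS3. Under the exchanged pairing, 5 were lower and 3 higher in each. Ccne1, which encodes the FBXW7 substrate cyclin E1, stood at 11.6, 9.18, 27.0 and 43.9 CPM, and both LPS libraries exceeded both untreated ones. Ccne2, for cyclin E2, took the order of 15 members, Mcm5 among them, at 10.6, 6.26, 3.90 and 7.95 CPM. Cdkn1a, the cyclin-dependent kinase inhibitor p21, was 3.42 and 3.59 times as high after LPS in WT and KO. Rbl1, the RB relative p107, was called higher in KO_LPS3, at 3.81 times KO, and E2f5, an E2F that works with RB relatives, in WT_LPS3, at 2.15 times WT. Tfdp2, an E2F partner, was 5.43-fold and 2.63-fold lower, and E2f7, an atypical E2F, 4.92-fold lower in WT_LPS3.

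Repair genes outside the 46 were lower in WT_LPS3 in part. Of 29 other homologous recombination and Fanconi genes, 16 were lower and 1 higher in WT_LPS3 (median log2 ratio -1.17), and 6 were lower and 2 higher in KO_LPS3 (median 0.04). After exchanging the untreated libraries, 8 were lower in WT_LPS3 and 9 in KO_LPS3, with 1 higher in each. Exo1, a resection nuclease, was 4.94-fold and 2.41-fold lower in WT and KO. Fancb, at 0.466 CPM in WT_LPS3, was 6.82-fold lower there, from few counts. Rbbp8, whose product CtIP starts resection, was 2.83 and 4.29 times as high after LPS in WT and KO. Rmi2, a partner of BLM, was 3.43-fold lower in WT and 2.74 times as high in KO, at 0.582 to 2.88 CPM.

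Of 24 genes of mismatch, excision and end-joining repair, 9 were lower in WT_LPS3 and 5 in KO_LPS3, and 0 were higher. In the exchanged pairing the counts were 8 and 6 lower and 0 higher. Xpc, a damage sensor of nucleotide excision repair, stood at 36.2, 31.1, 7.34 and 7.65 CPM, a contrast of both untreated with both LPS libraries like that of E2f2. Msh6, of mismatch repair, was 4.14-fold and 2.49-fold lower in WT and KO. Neil3 and Ung, DNA glycosylases, were 5.53-fold and 5.71-fold lower in WT_LPS3 and not called in KO_LPS3.

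Of 14 damage checkpoint genes, 5 were lower and 2 higher in WT_LPS3 and 2 lower and 3 higher in KO_LPS3, with median log2 ratios of 0.03 and 0.15. With untreated libraries exchanged, 0 were lower and 3 higher in WT_LPS3, and 2 lower and 2 higher in KO_LPS3. Apart from the 5 lower, the counts of the titled pairing lie near the shares of all genes tested. H2afx, the histone variant marked at breaks, was 3.81-fold lower and Chek2, a checkpoint kinase, 3.52-fold lower in WT_LPS3. Hus1, a subunit of the checkpoint clamp, was 3.01 and 2.43 times as high after LPS in WT and KO. Atm and Trp53 were called higher in KO_LPS3, at 3.06 and 2.04 times KO, and Mdm2 in WT_LPS3, at 2.57 times WT.

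The 10 genes outside the 46 whose profile lay closest to the members' median profile were Mical1, Pgm2l1, Gna15, Nup85, Gss, Cbx3, Fanca, Acot11, Zmym3 and Smc4. Likeness was the root mean square distance of centred log2(CPM + 1) over the 4 libraries, which was 0.0336 to 0.0621 for these among 9342 genes with a mean of at least 5 CPM. Mical1 stood at 8.89, 5.57, 3.55 and 5.57 CPM in WT, KO, WT_LPS3 and KO_LPS3. Smc4, a condensin subunit, stood at 76.7, 47.9, 33.4 and 51.9 CPM. Members differed in how close they lay, from 0.0460 for Prim1 to 0.901 for Pcna and 0.894 for E2f2.

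Macrophage markers were abundant in every library, at 16292 to 27960.3 CPM summed over 10 genes, with Lyz2 at the 8711 to 18238 CPM given for it. Lists of markers of other cell types summed to at most 31.9 CPM, and the B cell list took the order WT, KO_LPS3, KO, WT_LPS3 of 15 members. The 6 B cell markers summed to 31.9, 17.8, 9.96 and 27.6 CPM in WT, KO, WT_LPS3 and KO_LPS3, nearly all of it Cd79b at 31.4, 17.0, 9.72 and 27.4 CPM. Pax5 held 0 to 2 counts and Cd79a, Ms4a1 and Vpreb1 0 to 13, so these other B cell markers were at or near 0. The myeloid progenitor and immature neutrophil list summed to 7.94, 7.85, 5.76 and 3.61 CPM, and 2 of its 10 genes reached a mean of 1 CPM. Cd34 stood at 5.76, 3.00, 0.466 and 0.0612 CPM and was called lower after LPS under both titles, while Kit stood at 0, 1.30, 2.74 and 2.81 CPM and was called higher. The part of progenitors in the members' levels was not tested. Exons of 17 of the 46 genes share bases with another annotated gene, and the counting is not stated to use strand, so their reads may be shared. They are Orc1, Orc6, Mcm7, Cdc45, Gins2, Pole, Rfc2, Rfc4, Rfc5, Rpa1, Fen1, Lig1, Tk1, Chaf1a, E2f8, Brca2 and Fancd2. Of the 29 genes without such overlap, 14 were lower in WT_LPS3 than in WT, as were 14 of the 17 with it. Of the 29, 3 were lower in KO than in WT untreated, and 5 were higher in KO_LPS3 than in WT_LPS3.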

How the data were processed

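Per the submitters' processing notes, the authors used HISAT2 2.0.5 and mm10. Their deposited table holds a read count per gene, per the file headers, with the authors' FPKM, and the authors' log2 fold and adjusted p-value for 4 comparisons. How reads were counted, whether by strand, and how the authors tested genes are not given in the sources used. A further 8 per-sample columns were not used. Libraries took their group from their titles. Counts were scaled by TMM (edgeR 4.0.16), and log2 ratios carried a prior count of 2. The additive model of treatment and title (quasi-likelihood test, Benjamini-Hochberg adjustment over all genes tested) leaves 1 residual degree of freedom. DESeq2 1.42.0 and limma-voom (limma 3.58.1) refitted it. Other software was matplotlib 3.10.9, SciPy 1.17.1, NumPy 2.4.6, pandas 2.3.3, Python 3.11.15 and R 4.3.3.

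The members and gene lists were chosen with earlier results of these data known. All 46 members were named. Of each other list the text names up to 4 genes of largest log2 ratio among those called after LPS and those called against most of their list. Mki67, Ube2c and Birc5 were such exceptions among mitosis genes, of which the text gives Mki67. Some list genes are not reported here by name. Alternatives were DESeq2 size factors, library totals, other expression minimums, a 1.5-fold threshold, FPKM with a pseudocount of 1, and exchanged untreated libraries.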

Additional observations from a re-analysis of the deposited data

Results flagged for a closer look

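For 6 of the 46 genes the LPS ratios under the 2 titles lay on opposite sides of no change, with counting intervals that excluded it on each side, and at least 1 of the 2 ratios was called. In the titled pairing each was lower after LPS in the libraries labelled WT and higher in those labelled KO. The log2 LPS ratio was -0.81 in WT and 1.32 in KO for Mcm10, the helicase cofactor. For the licensing genes it was -1.17 and 0.71 (Orc1), -1.24 and 0.20 (Mcm2) and -1.38 and 0.51 (Mcm5). Rrm1 gave -1.30 and 0.77, and Uhrf1 -2.06 and 0.45. With the untreated libraries exchanged the opposite signs were gone for 5 of the 6 genes. In WT_LPS3 against KO and KO_LPS3 against WT the log2 ratios were then 0.15 and 0.36 for Mcm10, -0.62 and -0.41 for Mcm2, -0.36 and -0.51 for Mcm5, -0.35 and -0.18 for Rrm1, and -0.97 and -0.64 for Uhrf1. Orc1 gave -0.56 and 0.10, and both intervals included no change. These differences were not tested, since each group held 1 library. The share of all genes tested that meet the rule for these 6 genes was not computed, so 6 of 46 cannot be called many or few.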

How the results depend on the processing

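No paired analysis was possible because each group holds 1 library, and no library could be left out for the same reason. Of the summary values under all alternatives, 102 kept their size and 31 moved. Some of them could not move. All 46 members passed the minimum of 1 CPM, so dropping it could not change their ratios or calls. A changed threshold cannot alter a median, so the tally is no measure of robustness. Raw counts were compared, also for the 29 members without exonic overlap, where a lower count can come from the smaller set or from a lower share. No call of a member reversed its direction. For WT_LPS3 against WT (28 lower, 1 higher, median log2 ratio -1.20), exchanging the untreated library gave 9 lower and -0.63. Library totals gave 0 higher and -1.81, and FPKM 17 lower and -0.78. Of the 29 members without exonic overlap, an alternative chosen after seeing the data, 14 were lower, beside 28 of all 46. Their median log2 ratio was -0.98. Of all genes tested, 14.9% were lower with the exchange, 9.47% higher with library totals and 6.17% lower with FPKM. For KO_LPS3 against KO (3 lower, 2 higher, 0.00), the exchange gave 8 lower, 1 higher and -0.54, library totals 5 lower, 0 higher and -0.47, a 1.5-fold threshold 5 lower and 7 higher, and FPKM 1 lower. Among all genes tested, library totals gave 31.8% lower and 9.26% higher, a 1.5-fold threshold 29.2% and 23.6%, and FPKM 6.64% lower. For untreated KO against WT (5 lower), library totals gave 9, a 1.5-fold threshold 24, FPKM 2 and members without exonic overlap 3 of 29. Among all genes tested, 2.79% were lower with library totals, 5.98% at 1.5-fold and 0.568% with FPKM. For KO_LPS3 against WT_LPS3 (7 higher), a 1.5-fold threshold gave 23 and FPKM 2, beside 8.26% and 1.21% of all genes tested. Without exonic overlap 5 of 29 were higher there, at a median of 0.39 in place of 0.61. The median of untreated KO against WT stayed at -0.59. For the common LPS effect (1 rising, 1 falling, median -0.52), DESeq2 and limma-voom each gave 3 falling, no expression filter 8, library totals 0 rising, 8 falling and -1.09, and an adjusted p under 0.01 gave 0 in each direction. Of all genes tested, 6.50% fell with DESeq2, 6.33% with limma-voom, 7.01% without expression filter and 22.5% with library totals. Library totals gave 6.55% rising, and the stricter threshold 2.67% rising and 0.565% falling. The shorter E2F letters matched 26 genes in place of 15. They were in 65.9% of the 44 windows and in 9.57% of all windows, beside 34.1% and 2.26% for the longer letters. Library totals moved the median of all genes to -0.63 in WT_LPS3 against WT and -0.55 in KO_LPS3 against KO. Apart from these constructions the cause was not tested. The difference of the LPS ratio between titles, the common KO effect and the order of libraries kept their size under the alternatives run. Exchanged untreated libraries were not among these, and the LPS medians of -0.63 and -0.54 in that pairing lie close together. Low counts limit Orc1, Gins3, Brca2 and Fancd2, among others. Cdc6, Cdc45 and Fen1 held 51, 55 and 59 counts in WT_LPS3, and E2f2 held 50 in WT_LPS3 and 49 in KO_LPS3.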
